A study of Mus musculus with 2 samples.

Results

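CXC chemokines are small secreted or membrane-bound proteins that guide the migration of blood cells through G protein-coupled receptors. The family members examined here were the 10 mouse genes Cxcl1, Cxcl2, Cxcl3, Cxcl5, Cxcl9, Cxcl10, Cxcl12, Cxcl13, Cxcl14 and Cxcl16. They were chosen by name and by known role, with earlier results of these data known. Every probe set annotated to exactly 1 of these genes was used, which gave 18 probe sets of 34945 that carry a single gene. The 10 genes were read among 18193 genes with such a probe set. Expression was measured on Affymetrix arrays, with 1 array of Cpdm cells and 1 array of wildtype cells. Cpdm mice carry the spontaneous chronic proliferative dermatitis mutation of Sharpin in all their cells, which removes a subunit of the complex that builds linear ubiquitin chains in TNF receptor signalling. Both groups were unsorted bone marrow cells kept in culture for 10 days in medium that held ascorbic acid at 50 µg/ml together with β-glycerophosphate at 10 mM, which drives stromal cells of the marrow towards bone formation. Per the labels neither culture received a further treatment, and the sources used here do not give the age, sex or number of the mice.

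With 1 array a genotype there is no replicate error and no test, so each difference below describes these 2 arrays and carries no p-value. Values are MAS5 signals, linear intensities scaled by the authors to the same trimmed mean in both arrays. A signal under the 40th percentile of an array's probe sets, 18.5 for Cpdm and 18.7 for wildtype, was set to that floor, and a fold with 1 array at the floor is a lower bound, written as "at least". The array pair offers a pair of technical yardsticks. The 18 spike-in control probe sets had log2 ratios of Cpdm over wildtype between -0.22 and 0.20. The 2 brightest probe sets of a gene disagreed in log2 ratio by a median of 0.31, with a 95th percentile of 1.11, over 5250 genes. Neither yardstick holds the spread between cultures or mice.

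Some differences between the arrays ran alongside genotype and cannot be told apart from it in the results that follow. The 18S ribosomal RNA controls, 3 probe sets, were lower in Cpdm, at log2 ratios between -3.75 and -2.37. Xist, which silences an X chromosome in female cells, read 1113 in Cpdm cells, against 247 in wildtype cells by its brightest probe set, and the Y-linked gene Eif2s3y read 80.7 in Cpdm cells, against 249 in wildtype cells. Sharpin was detected in both arrays, at 162 in Cpdm and 197 in wildtype by its brighter probe set. That transcript level does not check the genotype labels, because the mutation need not remove the transcript. The part of these differences in the chemokine values was not tested.

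The family divides by function. Cxcl1, Cxcl2, Cxcl3 and Cxcl5 attract neutrophils through the receptor CXCR2 and are classic targets of NF-κB downstream of TNF, interleukin-1 and interleukin-17. Cxcl9 and Cxcl10 are induced by interferons and attract T and NK cells through CXCR3. Cxcl12 is the marrow stromal factor that retains blood stem cells and B cell precursors through CXCR4, Cxcl13 guides B cells to follicles through CXCR5, and Cxcl14 is made by epithelia and stroma at rest. Cxcl16 is a membrane protein with a chemokine domain on a stalk; it binds CXCR6, takes up oxidised lipoprotein and is released by metalloproteinases such as ADAM10.

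The bases just before the start of Cxcl1, Cxcl2 and Cxcl3, which lie in 1 gene block, are shown because these genes share a sequence of the NF-κB type there. The sequences are RefSeq's, build GRCm38.p6, and each gives 120 bases that end 1 base before the annotated start, on the plus strand. Capitals mark matches to the NF-κB motif, searched on both strands as the letters GGGA, any base, TT, any base and CC.
Cxcl1, chr5:90891125-90891244: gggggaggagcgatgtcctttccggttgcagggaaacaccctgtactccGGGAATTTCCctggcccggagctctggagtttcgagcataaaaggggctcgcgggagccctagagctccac
Cxcl2, chr5:90903779-90903898: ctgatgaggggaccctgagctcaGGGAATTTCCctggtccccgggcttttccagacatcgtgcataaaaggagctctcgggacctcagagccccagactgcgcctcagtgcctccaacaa
Cxcl3, chr5:90785981-90786100: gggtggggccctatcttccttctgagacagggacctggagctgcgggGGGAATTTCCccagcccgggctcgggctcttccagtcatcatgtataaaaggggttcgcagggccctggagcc
The first base of the match lies 71 bases before the start of Cxcl1, 97 before that of Cxcl2 and 73 before that of Cxcl3, and all 3 matches read GGGAATTTCC.

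For Cxcl10 the full 250 bases before the start are shown, because matches to both motifs searched lie there. The sequence is on the minus strand, and the capitals mark, in order, GAAAGTGAAA, a match to the interferon response motif (GAAA, 2 free bases and GAAA, on either strand), and GGGACTTCCC, a match to the NF-κB motif.
Cxcl10, chr5:92348890-92349139: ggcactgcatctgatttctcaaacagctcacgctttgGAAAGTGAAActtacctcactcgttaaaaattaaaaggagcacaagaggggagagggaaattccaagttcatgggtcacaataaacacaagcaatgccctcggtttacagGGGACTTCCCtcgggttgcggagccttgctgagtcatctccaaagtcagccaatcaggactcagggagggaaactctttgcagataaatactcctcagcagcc
The interferon motif begins 213 bases and the NF-κB motif 103 bases before the start, and they do not overlap. Among the 8 members with a promoter entry, 4 held the NF-κB motif in these 250 bases, namely Cxcl1, Cxcl2, Cxcl3 and Cxcl10. It was present in 0.98% of all 32851 promoter windows of this length. The interferon motif was present in 2 members, Cxcl10 and Cxcl14, and in 2.98% of all windows. These matches describe letters in a window and are not measured binding sites. Cxcl5 and Cxcl16 had no entry in the table used here.

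Most of the family was higher in the Cpdm culture. Of the 10 genes, 9 were above the floor in at least 1 array by their representative probe set, the one with the highest mean log2 signal. Of these 9, 6 were at least 2-fold higher in Cpdm, namely Cxcl2, Cxcl5, Cxcl10, Cxcl12, Cxcl14 and Cxcl16. Cxcl1 and Cxcl13 differed by under 2-fold, Cxcl3 had a bound of at least 1.81-fold higher, which does not show on which side of 2-fold it lies, and 0 members were 2-fold lower. Log2 ratios above 0 were seen in 8 of the 9, against 52.4% of all measured genes. Among all 14055 measured genes, 5.84% were at least 2-fold higher and 5.98% at least 2-fold lower. Cxcl3 and Cxcl5 passed the floor through the Cpdm array alone and so had to differ in that direction. Among the 7 members above the floor in both arrays, 5 were at least 2-fold higher and 0 at least 2-fold lower, against 5.72% higher and 5.32% lower of the 12395 genes above the floor in both. The share of all measured genes at least 2-fold higher was between 4.35% and 7.29% in 4 bins of rising signal. The median log2 ratio of the 9 measured members was 1.25, beside 0.03 for all measured genes. These comparisons describe the 2 arrays and do not test the family, because its members were chosen with earlier results of these data known.

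Of the 18 member probe sets, 10 were above the floor in both arrays, 5 in Cpdm alone, 1 in wildtype alone and 2 in neither. Of the 10 above the floor in both, 7 were at least 2-fold higher in Cpdm, against 5.07% of the 20969 single-gene probe sets above it in both. Cells of a type being fewer and each cell holding less of an RNA cannot be told apart in such bulk samples.

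**Figure D1:**
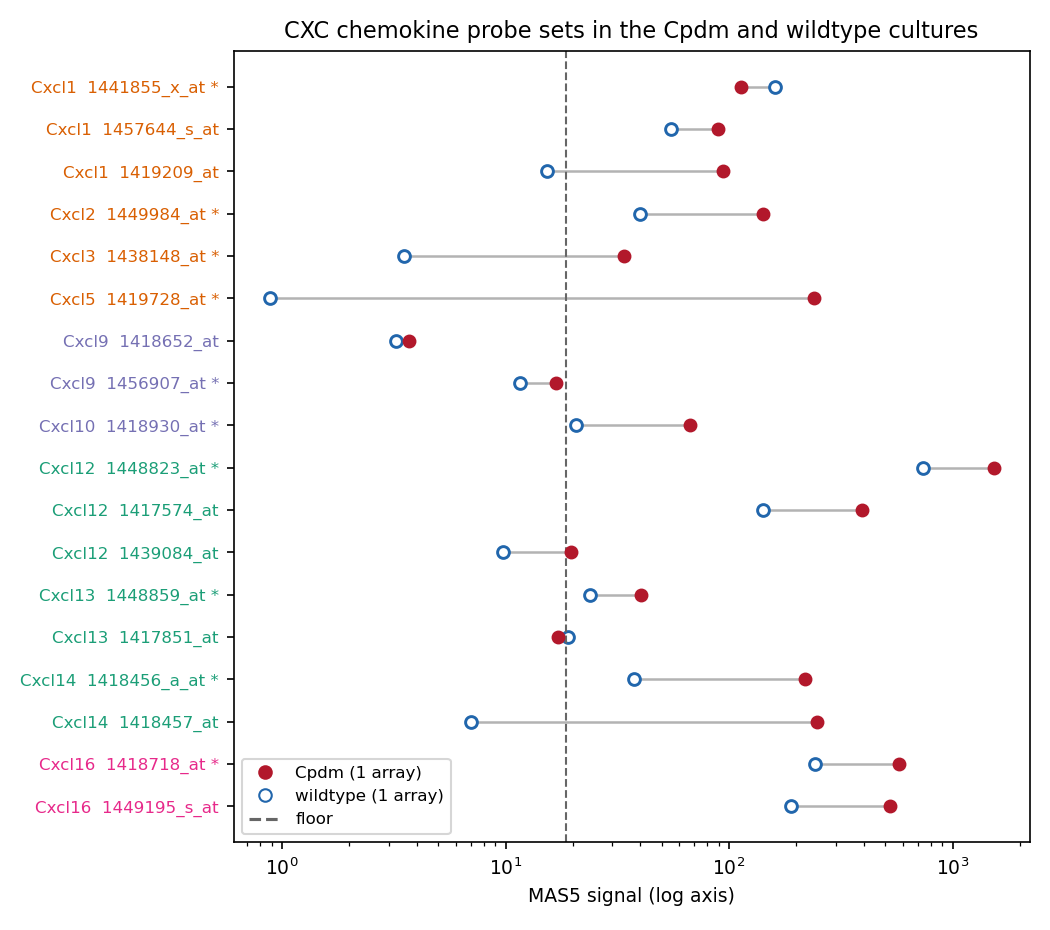
MAS5 signal (log axis) of the 18 CXC chemokine probe sets, grouped by gene, with filled circles for the Cpdm array, open circles for the wildtype array, a dashed line at the floor and an asterisk at the probe set that represents the gene; label colours mark the 4 classes. The Cpdm circle lies to the right of the wildtype circle for every probe set except 1 of Cxcl1 and 1 of Cxcl13.

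Among the neutrophil-attracting ligands, Cxcl5 had the highest ratio of the family by representative probe sets. Cxcl5, known in mice as LIX and made by stromal and epithelial cells, read 240 in Cpdm cells, against 0.881 in wildtype cells. The wildtype signal was below the floor, so the gene was at least 12.8-fold higher in Cpdm. This bound was the 4th highest log2 ratio of the 14055 measured genes. Its size is set by the floor, and no second probe set of Cxcl5 was available to check it.

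Cxcl2, also called MIP-2 and made by macrophages and many other cells after inflammatory signals, read 142 in Cpdm cells, against 40.1 in wildtype cells, with both signals above the floor. It was 3.54-fold higher in Cpdm, a log2 ratio of 1.83 that lies beyond the 95th percentile of disagreement between probe sets of a gene. Of all measured genes, 1.05% had a higher ratio. Cxcl3, a close relative of Cxcl2 in the same gene block, read 33.8 in Cpdm cells, against 3.52 in wildtype cells. It was weakly detected in Cpdm and below the floor in wildtype, which gives a bound of at least 1.81-fold higher.

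Cxcl1, known as KC and the best-studied neutrophil attractant of the mouse, was read differently by its 3 probe sets. The representative probe set, whose identifier ends in _x_at, read 113 in Cpdm cells, against 161 in wildtype cells and was thus 1.42-fold lower in Cpdm. A second, ending in _s_at, read 89.7 in Cpdm cells, against 54.8 in wildtype cells, 1.64-fold higher. The third, ending in plain _at, read 94.0 in Cpdm cells, against 15.4 in wildtype cells, at least 5.02-fold higher. The suffixes _x_at and _s_at mark probe sets that can bind more than 1 transcript, and the annotation ties the plain _at probe set to a RefSeq transcript of Cxcl1 while it lists no accession for the others. Without the first 2 probe sets, the gene counted among those at least 2-fold higher. The direction for Cxcl1 therefore depended on the probe set.

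**Figure D2:**
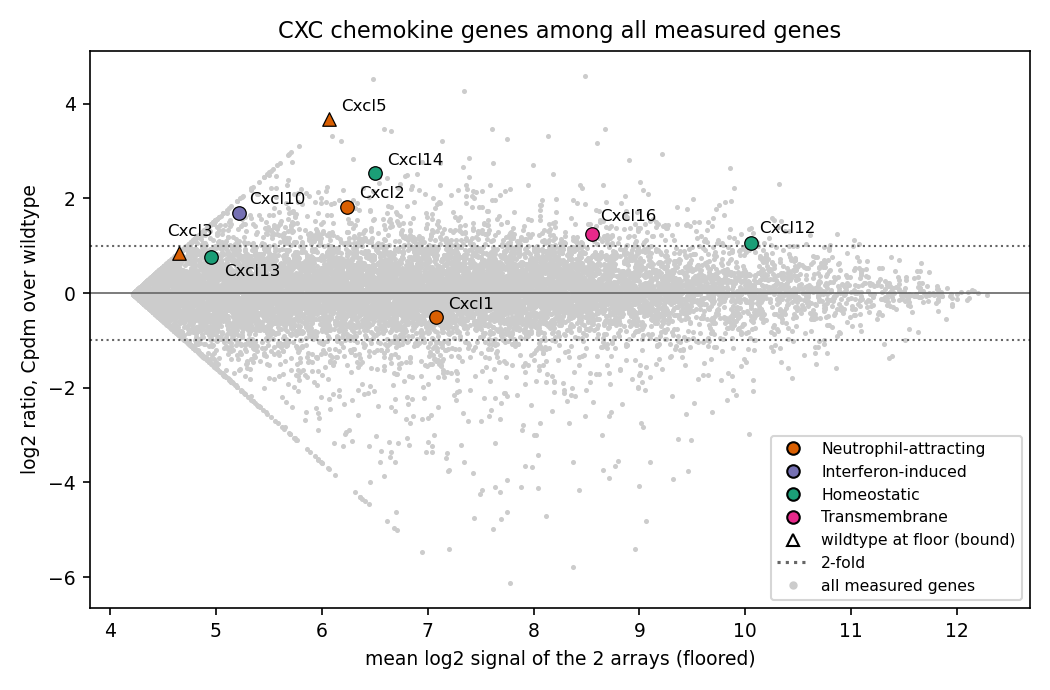
Log2 ratio of Cpdm over wildtype against the mean log2 signal of the 2 floored arrays, with 1 grey point for each of the 14055 measured genes and the 9 measured CXC members by class; triangles mark members whose wildtype signal was at the floor, and dotted lines mark 2-fold. Cxcl5 at 3.68 and Cxcl14 at 2.54 are the highest members, with 0.256% of all measured genes above Cxcl14, and Cxcl1 at -0.50 is the member below 0.

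The neutrophil-attracting genes lie in 1 block of 7 genes on chromosome 5, in the order Cxcl5, Ppbp, Pf4, Cxcl3, Cxcl15, Cxcl1 and Cxcl2. Of the other CXC ligands inside the block, neither Pf4 nor Ppbp passed 2-fold. Pf4, a platelet chemokine that also marks some macrophages, read 2531 in Cpdm cells, against 1878 in wildtype cells, 1.35-fold higher. Ppbp, the precursor of another platelet chemokine, read 30.9 in Cpdm cells, against 41.8 in wildtype cells, 1.35-fold lower. Cxcl15, a lung chemokine of mice, lay below the floor in both arrays, at 16.8 in Cpdm and 12.2 in wildtype. A 2-fold difference was thus seen at both ends of the block, in Cxcl5 and Cxcl2, and not in the platelet genes next to Cxcl5.

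**Figure D3:**
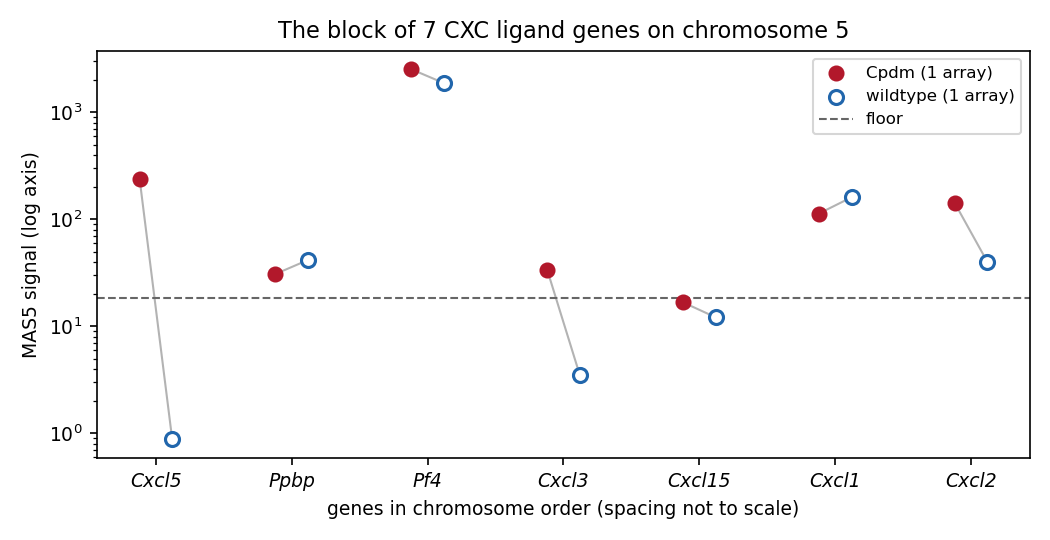
MAS5 signal (log axis) of the 7 CXC ligand genes of the chromosome 5 block in chromosome order, each by its representative probe set, with the Cpdm array as filled circles at the left, the wildtype array as open circles at the right and the floor as a dashed line. Cxcl5, Cxcl3 and Cxcl2 have the steep lines between arrays, whereas Ppbp and Pf4 differ by 1.35-fold in opposite directions and Cxcl1 is shown by the probe set that was lower in Cpdm.

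Of the interferon-induced pair, Cxcl10 was measured and Cxcl9 was not. Cxcl10, known as IP-10 and induced by type I and type II interferon, read 66.9 in Cpdm cells, against 20.6 in wildtype cells. It was 3.24-fold higher in Cpdm, with a log2 ratio of 1.70, and 1.28% of measured genes had a higher ratio. The wildtype signal lay at 1.10 times the floor, so this fold rests on a weak wildtype value, and the log2 ratio was 0.64 with the floor at the 60th percentile. Cxcl9, which depends on interferon gamma, was below the floor in both arrays by both probe sets, at 16.8 and 3.71 in Cpdm cells, against 11.6 and 3.24 in wildtype cells. No fold is given for it. In the genome Cxcl10 stands between Cxcl9 and Cxcl11, the third ligand of CXCR3, which the reference strain carries as a pseudogene. Cxcl11 read 21.5 in Cpdm cells, against 25.0 in wildtype cells, near the floor in both. Neither of these relatives was 2-fold higher in Cpdm by its representative probe set.

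The homeostatic members had log2 ratios above 0 by their representative probe sets. Cxcl14 read 219 in Cpdm cells, against 37.6 in wildtype cells by the representative probe set, 5.81-fold higher, and 0.256% of measured genes had a higher ratio. Its second probe set read 249 in Cpdm cells, against 6.98 in wildtype cells, at least 13.3-fold higher. Both probe sets thus agreed in direction and passed 2-fold.

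Cxcl12, also called SDF-1, had strong signals in both cultures. Its brightest probe set read 1526.5 in Cpdm cells, against 736 in wildtype cells, 2.08-fold higher in Cpdm. A second probe set read 394 in Cpdm cells, against 142 in wildtype cells, 2.78-fold higher. The third was near the floor, at 19.6 in Cpdm cells, against 9.69 in wildtype cells. The representative log2 ratio of 1.05 was close to the 2-fold line and within the 95th percentile of disagreement between probe sets of a gene, and it was 0.87 as the mean over the 3 probe sets. Cxcl13 was weak in both cultures, at 40.4 in Cpdm cells, against 23.8 in wildtype cells, 1.70-fold higher. Its other probe set read 17.1 in Cpdm cells, against 18.9 in wildtype cells, at the floor, with a log2 ratio of -0.04.

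Cxcl16, the membrane-bound member of macrophages and dendritic cells, was measured well above the floor by both probe sets. The first read 578 in Cpdm cells, against 243 in wildtype cells, 2.38-fold higher in Cpdm. The second read 525 in Cpdm cells, against 189 in wildtype cells, 2.78-fold higher. The log2 ratios of 1.25 and 1.47 lie beyond the range of the spike-ins and differ from each other by less than the median disagreement between probe sets.

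The receptors of these ligands went both ways. Of 7 receptors analysed here, 6 were measured, of which 1 passed 2-fold in each direction and 4 did not. Among all measured genes, 5.84% were at least 2-fold higher and 5.98% at least 2-fold lower. Cxcr6, the receptor of Cxcl16 on T cells and NK cells, read 114 in Cpdm cells, against 26.3 in wildtype cells, 4.32-fold higher, with a log2 ratio of 1.86 by its other probe set. Ackr3, a scavenging receptor that clears Cxcl12, read 158 in Cpdm cells, against 711 in wildtype cells, 4.50-fold lower. The other receptors are given although their differences were small, a choice made after their values were seen. Cxcr4, the signalling receptor of Cxcl12, read 480 in Cpdm cells, against 262 in wildtype cells, 1.83-fold higher. Cxcr3, Cxcr5 and the scavenger Ackr1 had log2 ratios of 0.68, at least 0.27 and 0.49. Cxcr2, through which the neutrophil attractants act, was below the floor in both arrays, at 8.64 in Cpdm and 2.35 in wildtype.

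Of the 5 remaining CXC ligands, 4 were measured. Of all measured genes, 5.84% were at least 2-fold higher and 5.98% at least 2-fold lower. Of the 4 ligands, 0 were higher past 2-fold and 1 was lower past it. That gene, Cxcl17, a mucosal chemokine, read 17.4 in Cpdm cells, against 43.5 in wildtype cells, at least 2.36-fold lower. The median log2 ratio of these 4 was -0.33, beside 1.25 for the 9 members.

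The genes listed as inducers and regulators of CXC ligand transcripts, positive and negative alike, included Tnf, Irf1 and Irf8 at more than 2-fold higher in Cpdm. Of the 18 analysed here, 16 were measured, of which these 3 passed 2-fold, against 5.84% of all measured genes, and 0 passed it in the lower direction. Of the 16 log2 ratios 13 were above 0, against 52.4% of all measured genes, and the median was 0.61. Tnf, which induces the neutrophil attractants, read 83.2 in Cpdm cells, against 29.0 in wildtype cells, 2.87-fold higher. This fold rests on a weak wildtype value, and Tnf was under 2-fold with the floor at the 60th percentile. Irf8, a transcription factor of macrophages that acts in the interferon response, read 539 in Cpdm cells, against 164 in wildtype cells, 3.29-fold higher. Irf1, a factor that interferon gamma induces, read 505 in Cpdm cells, against 245 in wildtype cells, 2.07-fold higher. Its log2 ratio of 1.05 was close to the 2-fold line and within the 95th percentile of disagreement between probe sets of a gene. Ifng and Il1r1 were below the floor in both arrays.

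Proteases that cut CXC ligands, and surface or matrix proteins that bind them, had log2 ratios above 0 in 3 of 10 measured genes. Among all measured genes, 52.4% had log2 ratios above 0, 5.84% were at least 2-fold higher and 5.98% at least 2-fold lower. Of 12 listed, 10 were measured, of which 1 passed 2-fold in each direction and 8 did not, by representative probe sets. Their median log2 ratio was -0.18. Sdc1, the heparan sulfate proteoglycan syndecan-1, read 716 in Cpdm cells, against 314 in wildtype cells, 2.28-fold higher, although its other probe sets had log2 ratios between -0.27 and 1.23. Bgn, the matrix proteoglycan biglycan, read 1690.0 in Cpdm cells, against 4226 in wildtype cells, 2.50-fold lower. Adam10 had a log2 ratio of -0.12, but between -1.60 and -0.47 by its 3 other measured probe sets. It is given for those probe sets, a choice made after its values were seen. Ctsg and Elane, proteases of neutrophil granules, were below the floor in both arrays.

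Markers of the cells that could carry these transcripts were set beside the members. Among all measured genes, 52.4% had log2 ratios above 0, 5.84% were at least 2-fold higher and 5.98% at least 2-fold lower. All 8 macrophage markers were measured and had log2 ratios above 0, with a median of 0.50, and their summed signal was 16510 in Cpdm cells, against 11610 in wildtype cells. Of these, 1 was at least 2-fold higher, the scavenger receptor gene Msr1, at 440 in Cpdm cells, against 219 in wildtype cells. Its log2 ratio of 1.01 sat on the 2-fold line, and its other probe sets had log2 ratios between 0.58 and 1.35. Csf1r was 1.37-fold higher by its representative probe set, but its 2 other measured probe sets had log2 ratios of 1.12 and 1.25. With the mean over measured probe sets, 0 macrophage markers were at least 2-fold higher. Of the 8 marrow stromal markers, 2 were at least 2-fold higher, Cxcl12 itself and the adhesion molecule gene Vcam1 at 4.85-fold, and 1, Pdgfra, was 2.35-fold lower. Other probe sets had log2 ratios between 1.18 and 3.09 for Vcam1 and between -0.85 and -0.45 for Pdgfra. Col1a2 had a log2 ratio of -0.01, but between -2.84 and -1.03 by its other probe sets. That of Nt5e was -0.85, and between -1.08 and 0.15 by its other probe sets. Csf1r, Col1a2 and Nt5e are given for their other probe sets, a choice made after their values were seen. The median log2 ratio of that list was 0.14, with 4 of the 8 above 0, and its signals summed to 6242 in Cpdm cells, against 4946 in wildtype cells. Both the median and the sum include the family member Cxcl12, at 1526.5 in Cpdm cells, against 736 in wildtype cells. They are therefore not independent of the chemokine values. The part of macrophage and stromal cell content in the chemokine values was not tested.

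The osteoblast markers were lower in Cpdm. Of 6 measured, 5 were at least 2-fold lower in Cpdm, against 5.98% of all measured genes. These 5 were Sp7, Alpl, Dmp1, Phex and Pth1r. Ibsp lay between at 1.31-fold lower, with a log2 ratio of -2.63 by its other probe set. The median log2 ratio of the 6 was -3.27, and their summed signal was 3840 in Cpdm cells, against 11526 in wildtype cells. Neutrophils, the cells that Cxcl1, Cxcl2, Cxcl3 and Cxcl5 attract, gave few and weak marker signals. S100a8, which neutrophils express strongly, read 45.1 in Cpdm cells, against 47.1 in wildtype cells. Of 7 neutrophil markers analysed here, 5 were measured and 0 passed 2-fold, Camp and Elane were below the floor in both arrays, and the 7 signals summed to 331 in Cpdm cells, against 294 in wildtype cells. The 2 measured neutrophil markers with the widest difference were Csf3r, 1.76-fold higher, and S100a9, at least 1.49-fold lower. Csf3r gave the largest of the 7 signals, at 193 in Cpdm cells, against 110 in wildtype cells. Of the 5 measured log2 ratios, that of Csf3r was the 1 above 0, and the median was -0.29. S100a9 read 10.2 in Cpdm cells, against 27.5 in wildtype cells, so 1 neutrophil marker was 2-fold lower with the floor at the 20th percentile or with none.

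No measured marker of the remaining cell types passed 2-fold with the floor used here. None of the 3 measured platelet markers differed by 2-fold, with the widest ratios in Ppbp and Pf4, described above, and Gp9 was below the floor in both arrays. Of 5 endothelial markers, Kdr was measured, at 1.29-fold lower, and Pecam1, Cdh5, Tek and Emcn were below the floor in both arrays. The B cell markers Ms4a1 and Cd79b were 1.33-fold lower and at least 1.06-fold higher, with Cd79a below the floor. Cd79b read 19.9 in Cpdm cells, against 9.59 in wildtype cells, and 1 B cell marker was 2-fold higher with the lower floor or with none. The T cell marker Cd3e was 1.18-fold lower, near the floor, and Cd3g and Nkg7 were below it in both arrays. Nkg7 read 15.3 in Cpdm cells, against 6.19 in wildtype cells. With the lower floor or with none, 1 T and NK cell marker was 2-fold higher and 1 endothelial marker was 2-fold lower.

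**Figure D4:**
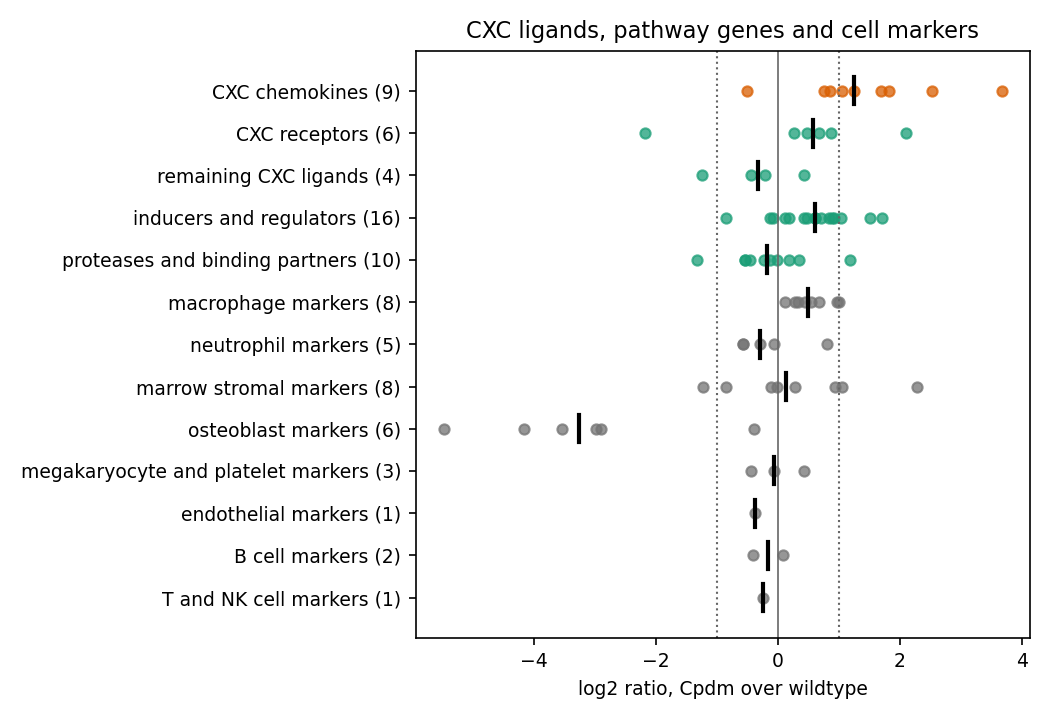
Log2 ratio of Cpdm over wildtype for the 9 measured CXC members (orange), the pathway lists (green) and the cell type markers (grey), with 1 point a measured gene, the number of genes in brackets, a black bar at the median and dotted lines at 2-fold. The CXC members have a median of 1.25, the macrophage markers one of 0.50 and the osteoblast markers one of -3.27.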

How the data were processed

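Cultured marrow cells of 2 genotypes were each measured on 1 array, from 5 µg total RNA per the labels' protocols. The authors deposited MAS5 signal intensity values for 45101 probe sets, and the submitters' processing notes name GCOS 1.4 and MAS5. The table has no detection calls or errors per value, and its scaling target is not stated in the sources used here. The trimmed mean (2% off each end) was 100 in both arrays.

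Gene names come from GEO's platform annotation, updated through Entrez identifiers, which changed 0 symbols. Of the non-control probe sets, 34945 carried 1 gene and 932 several, and the others are unnamed. For a gene with several probe sets, the one of highest mean floored log2 signal stood for it. The comparison is log2 of Cpdm over wildtype, with genes counted past a fold of 2. No test was possible with 1 array a genotype, and the number of arrays limits the precision. The counting step was tested on simulated data with planted differences larger than 2-fold, in genes well above the floor. That simulation did not cover folds near 2 or signals near the floor.

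The members, classes and gene lists were chosen with earlier results of these data known. All 10 members are named with every probe set; from each list, every measured gene past 2-fold is named, or else the 2 widest, together with those below the floor in both arrays. Alternatives changed the floor, scaling, representative probe set, log offset and fold. Python 3.11.15, numpy 2.4.6 and pandas 2.3.3 were used. Promoter sequences are RefSeq's (GRCm38.p6). The deposited table names no genome build.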

Additional observations from a re-analysis of the deposited data

How the results depend on the processing

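The count of members at least 2-fold higher was 6 and lay between 5 and 8 over 10 alternatives, and no member passed 2-fold in the lower direction in any of them. It was 5 with the floor at the 60th percentile, where the log2 ratio of Cxcl10 was 0.64, and with the mean over measured probe sets, where that of Cxcl12 was 0.87. Cxcl1 had a log2 ratio of 0.84 with that mean and 2.33 without _s_at and _x_at probe sets, against -0.50 as reported. The log2 ratio of Cxcl5 was at least 2.48 with the floor at the 60th percentile, at least 5.28 at the 20th and 7.90 with signals under 1 set to 1. That of Cxcl3 was at least 2.46 at the 20th percentile, 3.26 with no floor and 1.35 on the log2(signal + 16) scale, past 2-fold in each, and the gene was not measured at the 60th. The median of the neutrophil-attracting class was 1.34 and became 2.14 with the floor at the 20th percentile, 1.72 at the 60th, 2.54 with no floor and 2.08 without _s_at and _x_at probe sets. The interferon-induced class had 1.70, and 1.12 with the lower floor or none, where Cxcl9 joins it, 0.64 with the higher floor and 1.18 on the log2(signal + 16) scale. The homeostatic class had 1.79 with the higher floor, which drops Cxcl13.

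Of all genes, the counts higher and lower were 1265 and 1397 with the floor at the 20th percentile, 1687 and 1849 with no floor, and 2210 and 1895 past 1.5-fold. Receptors past the fold in the higher direction numbered 2 with no floor and 3 past 1.5-fold. Inducers and regulators numbered 2 higher with the higher floor, where Tnf was under 2-fold. They also numbered 2 on the log2(signal + 16) scale, where Irf1 was just under 2-fold, and 9 past 1.5-fold. In that list 1 was lower under the 1.5-fold rule, with the lower floor and with no floor. Proteases and binding partners numbered 0 higher with the mean over probe sets and without _s_at and _x_at probe sets, and 2 with no floor. The remaining ligands had 0 lower with the higher floor and on the log2(signal + 16) scale, and a median of 0.20 with the higher floor. The marker medians that moved were -0.74 for endothelial genes with the lower floor and -3.76 for osteoblast genes without _s_at and _x_at probe sets. Scaling to the same median, by quantiles or by spike-ins left the member count at 6. The cause of other shifts was not tested. No paired analysis was possible because each genotype has 1 array.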
